A study of Papio anubis with 588 samples.

Results

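The neuromuscular junction genes described here are 10 genes chosen by name as core components of the synapse between motor nerve and muscle fibre: AGRN, LRP4, MUSK, DOK7, RAPSN, CHRNA1, CHRNB1, CHRND, ACHE and COLQ. A row with the symbol was found for 9 of the 10 among the 34178 genes of the count table, and DOK7 was not analysed here. Their transcripts were measured by RNA sequencing in olive baboons (Papio anubis), 99 animals in all, with 1 library per animal, tissue and time for muscle, liver and adipose tissue. Each animal was sampled at 0 years, when it ate little cholesterol and little fat (LCLF), and again at 2 years, having been switched to food rich in both (HCHF). The libraries that passed the authors' quality control were 96 LCLF and 98 HCHF libraries of muscle, 95 and 87 of liver, and 99 and 95 of adipose tissue. All animals changed diet, so the diet, 2 years of ageing and the calendar cannot be told apart in a change between the times. The labels give no age, sex, kinship or biopsy site.

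At this synapse the nerve releases agrin (AGRN), which binds the receptor LRP4 on the muscle fibre and so activates the kinase MuSK (MUSK), with DOK7 as its adaptor. Activated MuSK drives rapsyn (RAPSN) to cluster the acetylcholine receptor, a channel whose adult form holds alpha (CHRNA1), beta (CHRNB1), delta (CHRND) and epsilon (CHRNE) subunits and whose fetal form holds gamma (CHRNG) in place of epsilon. In the cleft, acetylcholinesterase (ACHE) breaks down the transmitter and is anchored to the basal lamina by the collagen tail COLQ. Transcripts of several of these genes are made mainly by the few muscle nuclei under the synapse, and some rise along the whole fibre when the nerve is lost. Mutations in several of them cause congenital myasthenic syndromes.

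The total count per library ranged from 6.51 to 38.46 M (mega-counts). By the labels' protocols, batch 1 (16 animals) had unstranded single-end libraries and batch 2 (83 animals) stranded paired-end ones, which here had median totals of 10.95 M and 20.1 M. The labels do not say which animals belong to which, so membership was read from the leading axis of variation among animals, which set 16 apart from 83. Muscle fibre markers took 7.59 to 18.2% of the counts of the muscle libraries, and hepatocyte markers 2.89 to 24.3% of those of the liver libraries. In muscle 3 libraries of 2 animals held 0.423 to 2.45% of counts on hepatocyte markers, in liver 5 libraries of 4 animals held 0.0833 to 0.334% on muscle fibre markers, and in adipose tissue 3 libraries of 2 animals held 0.124 to 1.31% on muscle fibre markers. Results are given with these animals, and without them where that changes a call. Levels are CPM, a gene's count scaled to the library's total count. They are not divided by transcript length, so they are compared between tissues and times but not between genes.

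The first comparison placed the genes across the tissues on the LCLF diet. RAPSN, CHRNA1, CHRNB1 and ACHE were higher in muscle than in liver and adipose tissue, and AGRN was lower in muscle than in both. Tests were made within animals by edgeR's quasi-likelihood method, and a gene was called at an adjusted p (Benjamini-Hochberg, over all genes tested) under 0.05. Against liver (92 animals) 4 members were called higher in muscle and 1 lower, where 44.8% of the 14935 genes tested were higher and 48.7% lower. Against adipose tissue (96 animals) 5 members were higher and 2 lower, where 43.3% of 16101 genes were higher and 50.9% lower. Nearly every gene thus differs between tissues. The counts of members are out of the 9 in the table, of which at least MUSK and CHRND were too low for these tests. Relative to plain CPM, the test's scaling (TMM) moved muscle values up on the log2 scale. The mean over libraries was 1.58 against adipose tissue and 0.08 against liver, so counts of animals are given on plain CPM.

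AGRN, the ligand, is also a proteoglycan of the basement membranes of vessels. Its lowest, median and highest levels in LCLF libraries were 7.06, 15.7 and 101.1 CPM in muscle, 19.1, 51.0 and 183.8 CPM in liver (highest 112.5 CPM without the animals in doubt), and 91.7, 231.9 and 371.9 CPM in adipose tissue. It was lower in muscle than in adipose tissue in 96 of 96 animals (-2.05 ± 0.07 on the log2 scale, SE, as for all fold changes; -3.62 on plain CPM) and lower than in liver in 89 of 92 (-1.51 ± 0.07). The ranges of muscle and adipose tissue overlapped only between 91.7 and 101.1 CPM. Counts per gene do not separate the nerve's isoform of agrin, which clusters receptors, from the others.

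LRP4 and MUSK, the receptor and its kinase, were scarce in every tissue. A count of 0 in these libraries allows up to 3 counts, or 0.078 to 0.461 CPM depending on depth, a limit that covers counting error only. LRP4 ran from 0 through a median of 0.59 to 3.85 CPM in LCLF muscle, with 2 of 96 libraries at 0, against a highest level of 0.88 CPM and 58 of 95 libraries at 0 in liver. In adipose tissue its median was 0.25 CPM with a highest level of 2.94 CPM, and muscle was higher in 69 of 96 animals. Its fold change against adipose tissue was 2.44 ± 0.18 in edgeR and 0.70 on plain CPM. MUSK had a median of 0.41 CPM in LCLF muscle (highest 2.87 CPM, 4 of 96 libraries at 0), 0.14 CPM in adipose tissue (highest 0.53 CPM) and 0 in liver, where 91 of 95 libraries had no count. It was too low for the edgeR test between tissues, and muscle was higher in 79 of 96 animals against adipose tissue and in 90 of 92 against liver.

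RAPSN, the scaffold under the receptor, had the narrowest range in muscle. Its lowest, median and highest levels were 62.3, 102.1 and 190.5 CPM, and the highest level was 19.9 CPM in liver and 9.7 CPM in adipose tissue, so muscle did not overlap with either. It was higher in muscle by 4.40 ± 0.09 against liver and 6.49 ± 0.09 against adipose tissue.

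Among the receptor subunits of the list, CHRNB1 did not overlap between muscle and either other tissue. It lay between 44.6 and 248.5 CPM in LCLF muscle with a median of 80.8 CPM, while its medians in liver and adipose tissue were 0.11 and 0.39 CPM and its highest levels 3.14 and 9.7 CPM (2.19 and 6.22 CPM without the animals in doubt). CHRNA1 had a median of 6.73 CPM in muscle, with a lowest level of 1.74 CPM and a highest of 98.5 CPM. In liver 63 of 95 libraries had no CHRNA1 count and the highest level was 0.66 CPM (0.32 CPM without the animals in doubt). Adipose tissue had low CHRNA1 throughout, from 0.15 to 7.56 CPM with a median of 1.11 CPM, and muscle was higher in 95 of 96 animals (4.42 ± 0.17). CHRND had a median of 0.73 CPM in LCLF muscle, with 3 of 96 libraries at 0 and a highest level of 47.4 CPM. It was not tested between tissues because it did not pass the filter on low counts, and muscle was higher in 90 of 92 animals against liver and 85 of 96 against adipose tissue.

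The 2 subunits outside the list completed the picture. CHRNG, the fetal subunit, had a median of 1.3 CPM in LCLF muscle and a highest level of 42.1 CPM, and was higher in muscle in 92 of 92 animals against liver. CHRNE, the adult subunit, had a median of 0.21 CPM in muscle, 0.31 CPM in liver and 1.17 CPM in adipose tissue. Against adipose tissue CHRNE was 0.04 ± 0.25 in edgeR (adjusted p = 0.877) and -1.47 on plain CPM, a value whose sign turned with the scaling. The RefSeq annotation places CHRNE across MINK1 and C17H17orf107, and the sources used here do not say whether reads were counted by strand, so reads of these genes cannot be told apart. MUSK overlaps a pseudogene there (LOC108582228), and none of the other 8 members overlaps another gene.

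In the cleft, ACHE lay between 0.89 and 74.9 CPM in LCLF muscle with a median of 12.7 CPM, against medians of 0.89 CPM in liver and 0.58 CPM in adipose tissue. The highest liver library reached 15.0 CPM, from an animal in doubt, and 9.44 CPM without such animals, both within the muscle range, and muscle was higher in 85 of 92 animals (3.55 ± 0.22). Its highest level in adipose tissue was 1.92 CPM and muscle was higher in 96 of 96 animals. COLQ went the other way. Its medians were 1.68 CPM in muscle, 1.63 CPM in liver and 12.6 CPM in adipose tissue, with highest levels of 7.36, 7.51 and 42.6 CPM. It was higher in adipose tissue than in muscle in 94 of 96 animals (-1.21 ± 0.10 for muscle against adipose tissue; -2.76 on plain CPM). Muscle and liver did not differ by the test for COLQ (0.14 ± 0.12, adjusted p = 0.254), and with 46 animals higher and 46 lower the groups overlapped throughout. In batch 1 alone COLQ was -1.09 in muscle against liver and passed (limma-voom adjusted p = 0.00217).

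**Figure D1:**
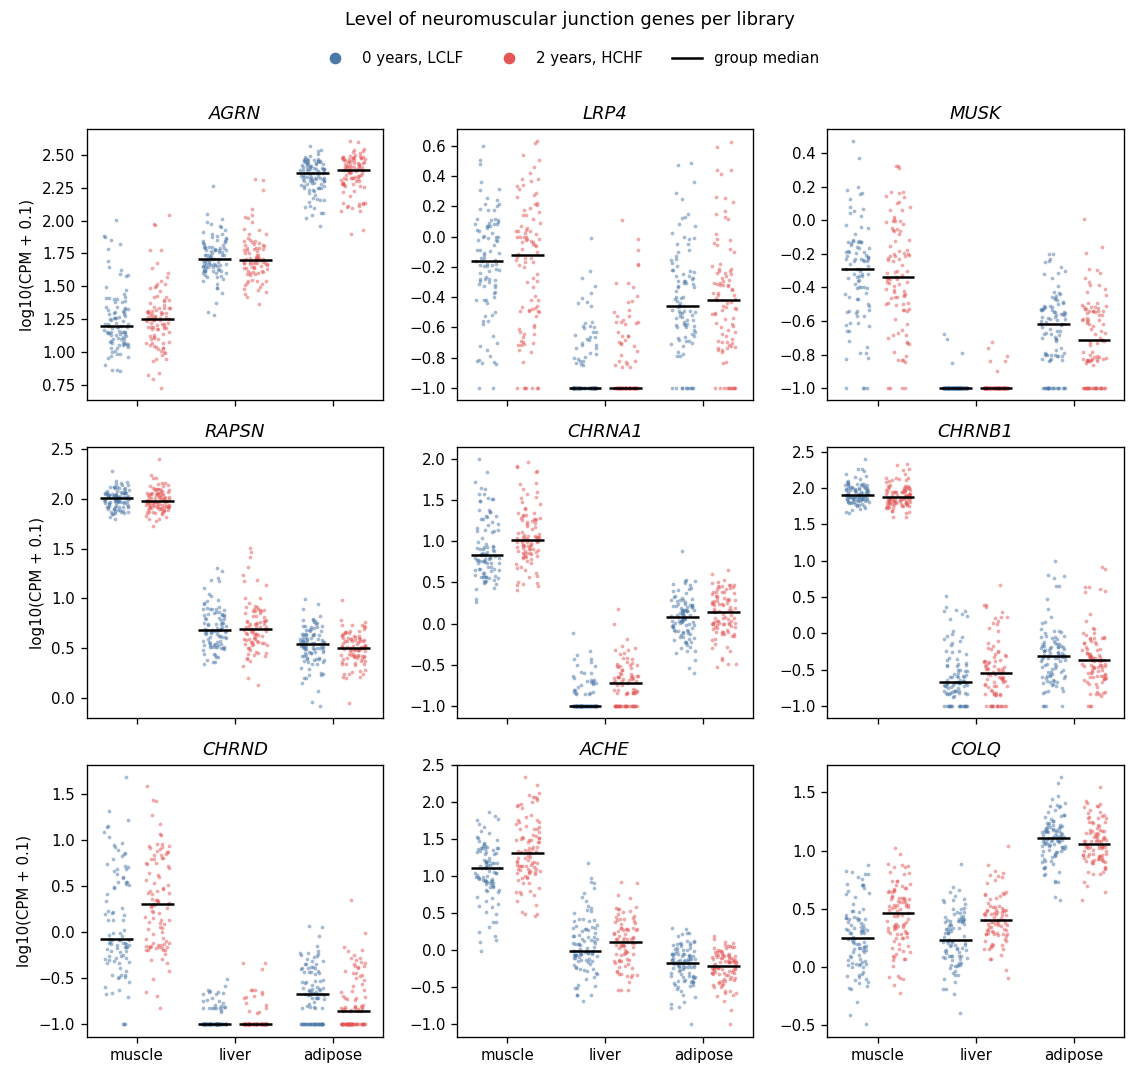
Each point is 1 library, with log10(CPM + 0.1) on the vertical axis of each panel, for muscle, liver and adipose tissue at 0 years (blue, LCLF) and 2 years (red, HCHF); black lines are group medians, and points at -1 are libraries with no count. RAPSN, CHRNB1, CHRNA1 and ACHE stand highest in muscle, AGRN and COLQ in adipose tissue, and CHRND in muscle spreads from 0 to 47.4 CPM at 0 years.

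The second comparison was the change of each gene within the 95 animals with muscle libraries at both times. ACHE, CHRNA1 and COLQ rose and CHRNB1 and RAPSN fell, while CHRND, AGRN and LRP4 did not pass the test and MUSK was too low to be tested. These 3 higher and 2 lower members of 8 tested stand against 7.39% of all 13621 genes higher and 8.24% lower (15.6% in either direction). The median log2 fold change was 0.22 over the 8 members and 0.002 over all genes tested. Bulk RNA does not tell fewer cells or synapses in a biopsy from less RNA in each of them, here and in all changes below.

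Both cleft genes rose. ACHE went from 0.89, 12.7 and 74.9 CPM (lowest, median, highest) at 0 years to 2.83, 20.6 and 219 CPM at 2 years, and the groups overlapped over most of their range. It was higher at 2 years in 69 of 95 animals, and single animals ranged from -4.07 to 5.88 on the log2 scale around a fold change of 0.83 ± 0.15 (adjusted p = 7.27e-05, edgeR quasi-likelihood test). COLQ went from 0.22, 1.68 and 7.36 CPM to 0.5, 2.8 and 10.4 CPM. It rose by 0.49 ± 0.13 (edgeR adjusted p = 0.00455) and was higher in 64 animals.

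The mean rise of COLQ was larger in batch 1, in a comparison of the batches added after seeing the data. Its mean change was 1.65 in the 16 animals of batch 1 and 0.32 in the 79 of batch 2, a difference of 1.33 ± 0.32 (limma, unadjusted p = 5.95e-05). After adjustment over all genes this difference did not pass (adjusted p = 0.3), and 0 of 13621 genes did, with 1046 at an unadjusted p under 0.05 in limma. At 0 years COLQ had a median of 0.78 CPM in batch 1 and 1.98 CPM in batch 2, and at 2 years 3.02 and 2.72 CPM. In batch 2 alone COLQ was 0.32 ± 0.13 and did not pass (edgeR adjusted p = 0.0857), and in batch 1 alone it was 1.87 ± 0.32 and passed (limma-voom adjusted p = 0.03). ACHE had mean changes of 1.35 in batch 1 and 0.76 in batch 2. It passed in batch 2 alone (0.73 ± 0.16, edgeR adjusted p = 0.00231) and not in batch 1 alone (1.50 ± 0.32, limma-voom adjusted p = 0.0583).

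Among the receptor subunits 1 rose and 1 fell. CHRNA1 went from 1.74, 6.73 and 98.5 CPM to 2.49, 10.2 and 91.4 CPM and rose by 0.44 ± 0.16 (edgeR adjusted p = 0.0434), with 62 of 95 animals higher. Its call was lost in limma-voom (0.38 ± 0.16, adjusted p = 0.0836) and in batch 2 alone (0.36 ± 0.17, edgeR adjusted p = 0.149). CHRNB1 went from 44.6, 80.8 and 248.5 CPM to 39.4, 75.1 and 214.4 CPM and fell by 0.15 ± 0.04 (edgeR adjusted p = 0.00632), with 62 animals lower. CHRND had a median of 0.73 CPM at 0 years and 1.91 CPM at 2 years, with highest levels of 47.4 and 37.9 CPM. Its fold change of 0.57 ± 0.23 had an edgeR adjusted p = 0.0804, and 58 animals were higher and 37 lower, from -4.36 to 4.94. CHRNE (0.41 ± 0.26, edgeR adjusted p = 0.286) and CHRNG (0.27 ± 0.17, edgeR adjusted p = 0.272) did not pass.

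Among the organisers of the synapse analysed here only RAPSN was called. LRP4 and MUSK had few counts, and LRP4 ranged from -3.78 to 3.19 in single animals, so small changes are not shown for them. RAPSN went from 62.3, 102.1 and 190.5 CPM to 52.9, 95.2 and 249.2 CPM and fell by 0.09 ± 0.03 (edgeR adjusted p = 0.034), with 56 animals lower and 39 higher. In batch 2 alone RAPSN was -0.07 ± 0.03 and did not pass (edgeR adjusted p = 0.179). AGRN went from a median of 15.7 to 17.6 CPM with a fold change of 0.01 ± 0.06, and LRP4 from 0.59 to 0.65 CPM with 0.01 ± 0.13. The mean change of LRP4 was 0.50 in batch 1 and -0.18 in batch 2. This difference did not pass after adjustment over all genes (limma adjusted p = 0.628). MUSK had medians of 0.41 and 0.36 CPM, and without the filter on low counts its change was -0.09 ± 0.16 in limma-voom (adjusted p = 0.765). The fit without the animal block gave no lower member, with CHRNB1 at -0.14 ± 0.06 (edgeR adjusted p = 0.18) and RAPSN at -0.08 ± 0.04 (edgeR adjusted p = 0.295), and CHRNA1 was no longer called there (0.30 ± 0.17, edgeR adjusted p = 0.353).

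Markers of other cells in the biopsy changed between the same libraries. Of 7 Schwann cell and nerve markers, 5 were tested in muscle, 3 rose (among them NGFR at 0.49 ± 0.11) and 0 fell, while SOX10 and MAL were too low to be tested. Their summed share of counts ran from 0.000535 to 0.0161% at 0 years and from 0.000522 to 0.0117% at 2 years. The mean change of their score, the mean log2 CPM of 6 of them, was 1.17 ± 0.35 in batch 1 and 0.31 ± 0.19 in batch 2. Of 8 fast fibre markers 6 fell and 1 rose, and of 6 endothelial markers 5 fell. Macrophage markers rose in 3 of 5 tested, fibroblast markers in 3 of 6, and muscle fibre markers fell in 2 of 7 and satellite cell markers in 1 of 2 (CDH15, -0.16 ± 0.05). No marker of slow fibres (6 tested), hepatocytes (4), adipocytes (4), erythroid cells (2) or smooth muscle (4) passed by edgeR, with 1 of these, an adipocyte marker, at an unadjusted p under 0.05. What these changes contribute to those of the members was not tested. A limma fit with score changes as covariates is given as an alternative only. It also changes the tool, and its scores come from the same libraries, so a lost call does not measure a contribution. With the changes of 8 such scores (fast and slow fibre, Schwann, erythroid, macrophage, endothelial, fibroblast and adipocyte) as covariates in limma, ACHE kept its call at 0.53 ± 0.15 (adjusted p = 0.0292), whereas CHRNA1 was -0.04 ± 0.14, COLQ 0.25 ± 0.12 and RAPSN -0.004 ± 0.03, none of which passed. CHRNB1 was -0.14 ± 0.05 there, with a limma adjusted p = 0.0547.

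**Figure D2:**
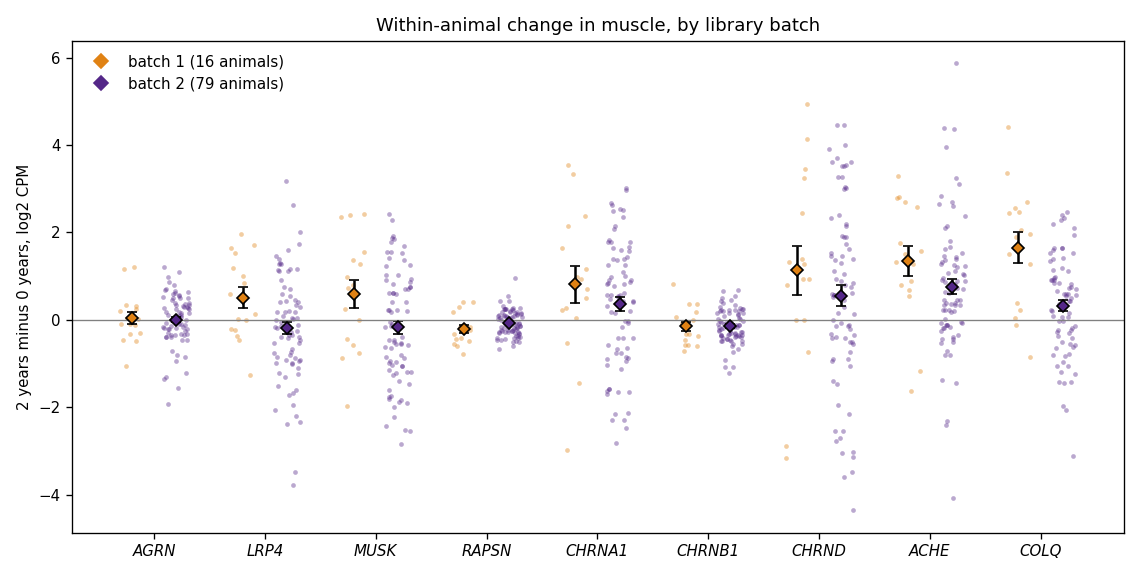
The vertical axis is the within-animal change in muscle (2 years minus 0 years, log2 CPM) and each small point is 1 animal, in orange for batch 1 (16 animals) and violet for batch 2 (79 animals); diamonds with bars are means with their SE. CHRND and ACHE spread over several log2 units in both directions, RAPSN and CHRNB1 stay near 0, and COLQ has a mean of 1.65 in batch 1 and 0.32 in batch 2.

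Other genes of the junction were read from lists of its parts. Of 10 postsynaptic adaptors and cytoskeletal genes in the table, 9 were tested, 1 rose and 1 fell in muscle. They were CRKL, an adaptor downstream of DOK7 (0.15 ± 0.04), and DTNA, alpha-dystrobrevin, which stabilises receptor clusters (-0.14 ± 0.03). UTRN, utrophin, which is concentrated at the synapse, did not pass (-0.04 ± 0.04). Of 8 genes of the synaptic basal lamina 7 were tested, 3 fell and 0 rose, among them the collagen IV chains COL4A3 (-0.42 ± 0.08) and COL4A4 (-0.34 ± 0.06) and the laminin chain LAMA5 (-0.19 ± 0.07). Of 6 genes of neuregulin and ETS signalling, which drives synaptic transcription, 5 were tested and 2 rose, the receptor ERBB2 (0.14 ± 0.04) and the ETS factor ETV5 (0.49 ± 0.15, higher in 66 of 95 animals).

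The response to loss of the nerve had a list of 11 genes in the table. Of the 10 tested in muscle, 0 rose and 0 fell by edgeR, with 1 at an unadjusted p under 0.05 (HDAC4, -0.13 ± 0.07, edgeR p = 0.0427), named here after its value was seen. MYOG, the myogenic factor that raises receptor subunits after denervation, was at -0.06 ± 0.06, and NCAM1, an adhesion molecule that spreads along denervated fibres, at -0.01 ± 0.11. Of 9 genes of the motor nerve terminal 3 were tested and 1 rose, VAMP1, a vesicle protein of transmitter release (0.22 ± 0.06). The others tested, SYT2 (-0.18 ± 0.07, edgeR adjusted p = 0.0736) and PRPH (-0.11 ± 0.11), were lower and did not pass. The median over the 3 was -0.115. VAMP1 is not particular to muscle, with means at 0 years of 5.12 CPM there, 9.0 CPM in liver and 24.48 CPM in adipose tissue. CHAT and SLC18A3, which make and load acetylcholine in the nerve, had no count in 87 and 95 of the 96 LCLF muscle libraries. Of 5 glycosylation genes of congenital myasthenic syndromes 0 passed by edgeR, and 0 were at an unadjusted p under 0.05.

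The third comparison set these changes beside those of liver and adipose tissue. In liver COLQ rose by 0.42 ± 0.09 (84 animals, edgeR adjusted p = 2.9e-05), from 1.63 to 2.42 CPM at the median, and was higher in 59 animals. It was the only call among the 4 members tested there, where 50.1% of 14919 genes were called (22.5% higher and 27.6% lower). ACHE (-0.002 ± 0.13), RAPSN (-0.11 ± 0.08) and AGRN (-0.07 ± 0.05) did not pass in liver. In adipose tissue (95 animals) 0 of 5 members tested passed by edgeR, with 1 at an unadjusted p under 0.05 (AGRN, 0.08 ± 0.04, adjusted p = 0.0845), where 39.2% of 16827 genes were called (19.0% higher and 20.2% lower). CHRNA1 was at 0.18 ± 0.10, ACHE at -0.17 ± 0.10, COLQ at -0.11 ± 0.07 and RAPSN at -0.09 ± 0.07. Beside them, CHRNE fell in adipose tissue by 0.31 ± 0.09 (edgeR adjusted p = 0.00603) and NCAM1 rose by 0.44 ± 0.13. NCAM1 also rose in liver (0.46 ± 0.13, edgeR adjusted p = 0.00208).

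The difference of the change itself was tested by limma over animals with all 4 libraries. ACHE changed more in muscle than in liver (0.70 ± 0.18, 80 animals, adjusted p = 0.00193) and than in adipose tissue (1.00 ± 0.18, 91 animals, adjusted p = 4.72e-05). COLQ changed more in muscle than in adipose tissue (0.66 ± 0.15, limma adjusted p = 0.000784), with mean changes of 0.55 and -0.11. COLQ did not differ between muscle and liver by this test (0.10 ± 0.17, limma adjusted p = 0.694), where the mean changes were 0.54 and 0.44. CHRNA1 had mean changes of 0.44 in muscle and 0.45 in liver (difference -0.01 ± 0.19, limma adjusted p = 0.978), on a liver median of 0 CPM at 0 years. In all, 4 of the 9 members in the table differed between muscle and liver (2 in each direction). Of all 16062 genes tested 33.7% did (18.2% with the higher change in muscle and 15.5% with the lower). Between muscle and adipose tissue 3 of the 9 differed, all with the higher change in muscle, where 11.6% of 17475 genes did (6.0% higher and 5.65% lower). The calls of CHRND (0.79 ± 0.25 and 1.01 ± 0.22), CHRNB1 (-0.29 ± 0.12, liver) and LRP4 (-0.38 ± 0.15, liver) set a change in muscle against a tissue with medians from 0 to 0.18 CPM, where values rest on the 2 counts added before the logarithm. With 0.5 counts added CHRNB1 did not pass (-0.39 ± 0.18, limma adjusted p = 0.0951), and without the animals in doubt LRP4 did not (-0.29 ± 0.15, limma adjusted p = 0.15).

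**Figure D3:**
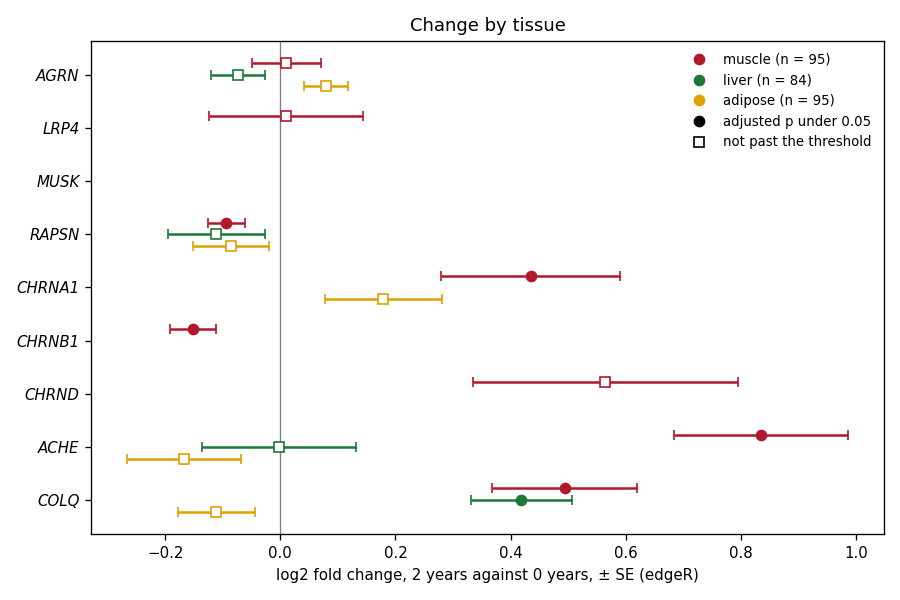
Points are log2 fold changes of 2 years against 0 years with their SE on the horizontal axis, for muscle (red, n = 95), liver (green, n = 84) and adipose tissue (yellow, n = 95); filled circles have an adjusted p under 0.05 in edgeR, open squares do not, and members too low to be tested have no point. ACHE is at 0.83 in muscle and near 0 in liver, and COLQ is called in muscle and liver.

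The last set of comparisons asked which members varied together between animals in muscle. It used the larger batch only, since the batches form separate clusters, and gives Pearson's r of log2 CPM with a two-sided permutation test (100000 resamples), adjusted by Benjamini-Hochberg over the 36 pairs. The spread between animals differed widely among the members. The SD of log2 CPM at 0 years was 1.84 for CHRND, above that of 99.3% of the genes tested, 1.24 for ACHE, 1.20 for LRP4 and 1.16 for CHRNA1, against a median gene at 0.51. It was 0.39 for CHRNB1 and 0.27 for RAPSN, which lay above only 31.0 and 9.6% of genes. Low counts add to the spread of CHRND, LRP4 and MUSK.

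CHRNA1 and CHRND formed the tightest pair. Their r was 0.746 at 0 years (80 animals, rho = 0.661, permutation p = 1e-05, the smallest the resamples can give, adjusted p = 0.00018) and 0.702 without the 2 animals farthest from the median of CHRNA1. It was 0.738 at 2 years (82 animals) and 0.844 for the within-animal changes (79 animals), which come from the same libraries. Of the 20 animals highest in CHRND at 0 years, 16 were among the 20 highest in CHRNA1. In batch 1 r was 0.530 and rho 0.235 (16 animals), and r did not pass (permutation adjusted p = 0.362). CHRNB1, the third subunit of the list, had r = 0.241 with CHRND and 0.212 with CHRNA1 at 0 years, neither called (permutation adjusted p = 0.0945 and 0.151).

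COLQ and MUSK were correlated with that pair at 0 years, and a background over all gene pairs is given below. COLQ had r = 0.492 with CHRND (rho = 0.485) and 0.450 with CHRNA1 (rho = 0.456), and MUSK had 0.415 with CHRND (rho = 0.397) and 0.336 with CHRNA1 (rho = 0.268), all called at 0 years by the permutation test (adjusted p = 0.00018, 0.00084, 0.00117 and 0.00924). Without the 2 animals farthest from the median of the pair's gene, CHRND or CHRNA1, they were 0.466, 0.420, 0.339 and 0.243. By Spearman correlation CHRNA1 with MUSK did not pass (adjusted permutation p = 0.0616). CHRNA1 with COLQ (0.233) and with MUSK (0.179) were not called at 2 years (permutation adjusted p = 0.0805 and 0.214). For the changes CHRNA1 was called with COLQ (r = 0.550, permutation adjusted p = 9e-05) but not with MUSK (r = 0.243, permutation adjusted p = 0.0797). COLQ also went with AGRN (r = 0.401, rho = 0.395) and with ACHE (r = 0.354, rho = 0.320), its partner in the cleft (permutation adjusted p = 0.0013 and 0.00699). Without the 2 animals farthest from the median of COLQ and of ACHE in turn, r was 0.397 and 0.352. ACHE and COLQ had r = 0.417 at 2 years and 0.541 for the changes.

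LRP4 at 0 years ran against AGRN and RAPSN and along with MUSK. Its r was -0.398 with AGRN, its ligand (rho = -0.362), -0.338 with RAPSN (rho = -0.356) and 0.325 with MUSK (rho = 0.244), with permutation adjusted p = 0.00138, 0.00924 and 0.0119. Without the 2 animals farthest from the median of AGRN, RAPSN and MUSK in turn these were -0.349, -0.316 and 0.354. Animals farthest from the median of LRP4 itself were not left out. MUSK with LRP4 did not pass by Spearman correlation (adjusted permutation p = 0.0956). LRP4 with MUSK was at 0.038 at 2 years and 0.095 for the changes, and LRP4 with AGRN at -0.347 and -0.109, of which only -0.347 was called by permutation. In all 10 of 36 pairs were called at 0 years, 11 at 2 years, 13 for the changes and 0 in batch 1 (4 there at an unadjusted p under 0.05). Correlations of this size were common in muscle. Over all pairs of the 13621 genes tested, 35.9% had an r at 0 years at least as far from 0 as the smallest called among the members (0.325), 40.3% at 2 years (0.270) and 31.8% for the changes (0.265), so the number of pairs called does not set these genes apart. The 6 pairs called with the same sign at 0 years, at 2 years and for the changes were CHRNA1 with CHRND, CHRND with COLQ, CHRND with MUSK, COLQ with AGRN, ACHE with COLQ, and RAPSN with LRP4. ACHE and RAPSN had r = -0.231 at 0 years, which was not called (permutation adjusted p = 0.108), -0.529 at 2 years and -0.508 for the changes, which were called. Whether these values differ between the times was not tested.

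**Figure D4:**
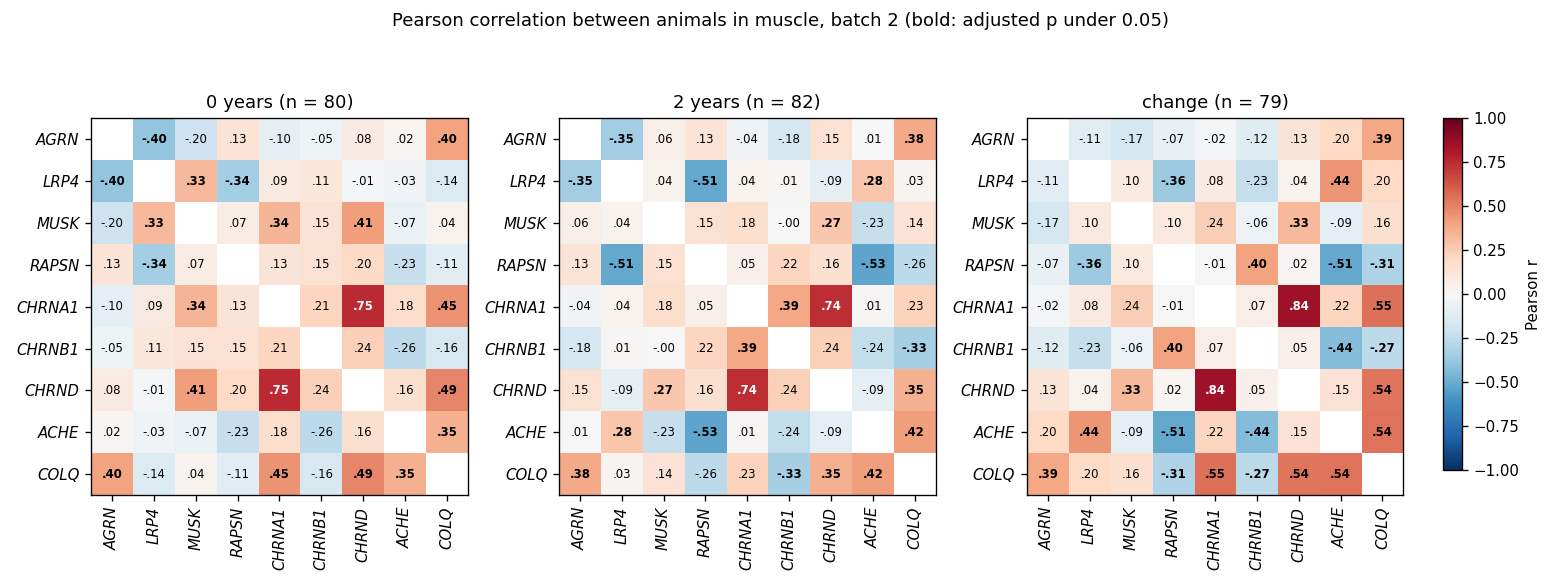
Each square is Pearson's r of log2 CPM between 2 members over the animals of batch 2 in muscle, at 0 years (n = 80), at 2 years (n = 82) and for the within-animal change (n = 79), from blue (-1) to red (1), with bold figures at an adjusted p under 0.05. CHRNA1 with CHRND is the reddest square in all 3 panels (0.746, 0.738 and 0.844), and LRP4 with RAPSN is blue in all 3.

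The level of the receptor pair went with nerve-associated transcripts. Over 81 relations of 9 members with 8 marker scores and the total count, the Schwann cell and nerve score had r = 0.571 with CHRND (rho = 0.447), 0.537 with CHRNA1 (rho = 0.428), 0.599 with COLQ (rho = 0.483) and 0.338 with ACHE (rho = 0.288) at 0 years, with permutation adjusted p = 0.000162 for the first 3 and 0.0173 for ACHE. Without the 2 animals farthest from the median score these were 0.511, 0.458, 0.530 and 0.290. For CHRND, CHRNA1 and COLQ they were 0.589, 0.419 and 0.540 at 2 years, and 0.691, 0.599 and 0.576 for the changes. For ACHE the relation was not called at 2 years (r = 0.208, permutation adjusted p = 0.179) and was 0.347 for the changes. In batch 1 none of the relations with this score was called. Among the other junction genes (54 relations), CHRND had r = 0.611 with CHRNE and 0.524 with CHRNG (rho = 0.525 and 0.478), and MUSK had 0.501 with CHRNG and 0.408 with NCAM1 (rho = 0.412 and 0.338), with permutation adjusted p = 9e-05 for each of these but NCAM1, where it was 0.000648. Without the 2 animals farthest from the median of the gene outside the list they were 0.568, 0.438, 0.439 and 0.327. MYOG was not called with CHRND or CHRNA1. The share of all genes reaching such values with these junction genes was not counted.

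AGRN went with endothelial markers instead. Its r with the endothelial score was 0.762 at 0 years (rho = 0.729, permutation adjusted p = 0.000162), 0.677 at 2 years, 0.689 for the changes and 0.745 in batch 1, the only relation of the 81 called by Pearson correlation in all 4. Without the 2 animals farthest from the median score, as for all scores here, it was 0.739 at 0 years. In batch 1 it was not called by Spearman correlation (rho = 0.635, permutation adjusted p = 0.249). AGRN had r = -0.666 with the muscle fibre score (rho = -0.396) and -0.448 with the log2 total count (rho = -0.367) at 0 years. RAPSN was lower where the fibroblast score was higher (r = -0.473, rho = -0.472, -0.475 without the 2 farthest animals, permutation adjusted p = 0.000231), also at 2 years (-0.496) and for the changes (-0.396). What these scores contribute to the relations between members was not tested. The share of all genes reaching such values with these scores was not counted.

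Fibre type was read from the balance of fast over slow fibre markers, and no member of 9 went with it at 0 years (1 at an unadjusted permutation p under 0.05, MUSK at r = -0.265, and 0 after adjustment by Spearman correlation). At 2 years, an alternative added after seeing the data, ACHE had r = -0.563 with the balance (rho = -0.568, permutation adjusted p = 9e-05), COLQ -0.370 (rho = -0.324) and RAPSN 0.322 (rho = 0.297), with adjusted p = 0.0031 and 0.00987 by permutation. Without the 2 animals farthest from the median balance these were -0.515, -0.354 and 0.288, so ACHE was higher in biopsies with relatively more slow fibre transcripts at 2 years. Its r at 0 years was -0.194 (rho = -0.252), and the difference between the times was not tested. How many of all genes reach such values with the balance was not counted, so these values do not set the members apart.

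**Figure D5:**
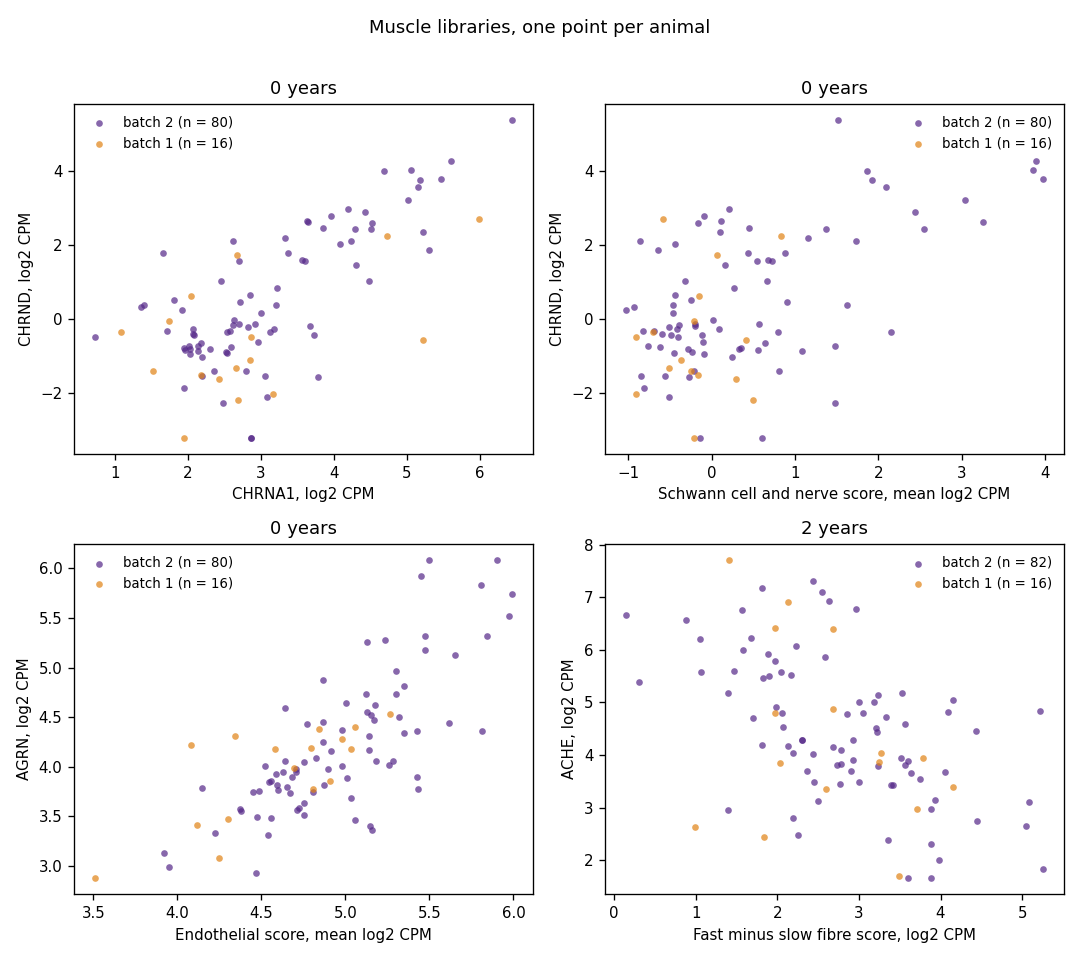
Each point is the muscle library of 1 animal, in violet for batch 2 and orange for batch 1, on log2 CPM axes. At 0 years CHRND rises with CHRNA1 (r = 0.746 in batch 2) and with the Schwann cell and nerve score (0.571), and AGRN with the endothelial score (0.762); at 2 years ACHE falls along the fast minus slow fibre score (-0.563).

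An animal's levels at the 2 times were correlated for 5 of the 9 members, and 80.5% of all 13621 genes tested had an r of at least the smallest of these (0.318), with a median r of 0.485. The correlation of the 0-year and 2-year levels over 79 animals was 0.658 for AGRN (rho = 0.577), 0.558 for LRP4 (rho = 0.545), 0.551 for CHRNB1 (rho = 0.464), 0.538 for RAPSN (rho = 0.558) and 0.318 for ACHE (rho = 0.418), all called by the permutation test over the 9 members (adjusted p = 2.25e-05 for the first 4 and 0.0072 for ACHE). Without the 2 animals farthest from the median of the 0-year level these were 0.598, 0.571, 0.549, 0.601 and 0.342. It was 0.232 for CHRND, 0.156 for CHRNA1, 0.141 for MUSK and -0.049 for COLQ, none of them called (permutation adjusted p = 0.0603, 0.216, 0.241 and 0.666). Without the animals in doubt CHRND was 0.251 and passed (permutation adjusted p = 0.0414). In batch 1 (16 animals) none was called, with ACHE at 0.652 and 2 members at an unadjusted p under 0.05.

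The gene most like each member in LCLF muscle, by r over 80 animals among 11016 named genes with a mean of at least 1 CPM, was as follows. ACHE went with MYLK3, a kinase of myosin light chains (0.643, and 0.789 at 2 years, where it was again the first of all). LRP4 went with MAVS, a mitochondrial adaptor of antiviral signalling (0.803, and 0.817 at 2 years, again the first). AGRN went with EGFL7, which endothelial cells secrete (0.918 and 0.848), and CHRNA1 with the ETS factor ETV5 (0.687 and 0.496). CHRND went with SPP1, osteopontin (0.668 and 0.574), CHRNB1 with GSE1 (0.716 and 0.684), RAPSN with RPLP0, a protein of the ribosomal stalk (0.697 and 0.750), COLQ with OAF (0.606 and 0.467) and MUSK with CYLD, a deubiquitinase (0.550 and 0.387). These values describe the genes picked as the highest of many, and no test was made of them.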

How the data were processed

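Muscle, liver and adipose libraries were grouped by the tissue, diet and time in the labels. The authors deposited raw counts per gene for 588 libraries and for the 570 that passed their quality control. Reads were handled with FastQC, STAR 2.7.7a and featureCounts, per the submitters' processing notes. The build of the genome is not given in the sources used here. Of the tables, that of 570 libraries was used, and 570 columns of the other table, which repeat its libraries, were left out except as an alternative together with the 18 libraries that the authors left out. No libraries were identical. Of 34178 symbols 33824 (99.0%) matched RefSeq (Panubis1.0), used for names and overlaps only.

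Changes were tested with edgeR 4.0.16 (TMM scaling, filterByExpr with a minimum count of 10, the quasi-likelihood test with animal as a block, adjusted over all genes tested). Differences of changes between tissues were tested with limma 3.58.1 on log2 CPM with 2 counts added, and DESeq2 1.42.0 served as an alternative, in R 4.3.3. Correlations used log2 CPM and permutation tests with 100000 resamples in SciPy 1.17.1 under Python 3.11.15. The fitting and correlation steps were tested on simulated data. The pairing comes from the animal identifiers: the 0-year and 2-year muscle libraries of an animal had a median correlation of deviations of 0.478, against 0.0061 for different animals, and 90 of 95 animals were over 0.1. Libraries totalled 6.51 to 38.46 M counts with a median of 19.5 M, so 3 counts correspond to 0.078 to 0.461 CPM.

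The rule for named genes takes all members, 8 other junction genes whatever their result, list genes past the threshold in muscle, and the gene most correlated with each member; some of these genes are not reported here. The members, lists and tests were chosen with earlier results of these data known. Alternatives covered scaling, filters, tools, the block, batches, covariates, libraries in doubt (by thresholds set after seeing the data) and the authors' left-out libraries.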

Additional observations from a re-analysis of the deposited data

Results flagged for a closer look

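The within-animal change differed between tissues by the limma test for 5 members. ACHE changed more in muscle than in liver by 0.70 and than in adipose tissue by 1.00 on the log2 scale. CHRND did so by 0.79 and 1.01, and COLQ by 0.66 against adipose tissue. The difference, muscle minus liver, was -0.29 for CHRNB1, with mean changes of -0.158 in muscle and 0.135 in liver, and -0.38 for LRP4, with -0.161 and 0.220. In liver CHRND, CHRNB1 and LRP4 had medians between 0 and 0.18 CPM, so the liver side of these differences rests on few counts, and only ACHE against liver and COLQ against adipose tissue were called among genes with a mean of at least 1 CPM in both tissues.

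Receptor transcripts also appeared in libraries outside the comparisons. Of the 13 libraries labelled liver that the authors left out, 8 held 3.8 to 13.7% of counts on muscle fibre markers. CHRNA1 had a median of 8.5 CPM in these 8 libraries, ranging from 2.25 to 187 CPM, and all 8 were above the highest liver library that passed (1.39 CPM). CHRNB1 had a median of 32.9 CPM there and ACHE one of 3.04 CPM. How these libraries came to hold muscle transcripts was not tested.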

How the results depend on the processing

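Of the changes counted in muscle, 3 members higher became 1 in batch 1 alone, 1 in batch 2 alone and 1 with the score changes as covariates. The 2 members lower became 1 without a filter, 1 in batch 2 alone, and 0 without the replicate block, with DESeq2 without the block, with all 588 libraries, in batch 1 alone and with the covariates. The block changed calls of CHRNA1, CHRNB1 and RAPSN in muscle. In liver the 1 member higher became 2 and the 0 lower became 1 without a filter, and 0 were higher in batch 1. In adipose tissue 1 was lower without a filter. The 4 members differing between muscle and liver became 1 at a mean CPM of at least 1 and 2 in batch 2 alone, and the 3 against adipose tissue became 1 at that CPM. In batch 1 (16 animals) 0 pairs and 0 repeated levels were called. In the 2-year libraries of batch 2, 3 members went with the fibre balance, against 0 at 0 years. The share of all genes that did so was not counted. The other 77 values of counts were within 1.5 times the main one.

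Among the 10 pairs called at 0 years, signs turned in batch 1 for ACHE with COLQ (-0.188), CHRNA1 with MUSK (-0.193), RAPSN with LRP4 (0.075), COLQ with AGRN (-0.146) and AGRN with LRP4 (0.024), and likewise the level of COLQ in muscle against liver (-1.091). Of pairs not called, ACHE with CHRND was farthest from 0 there (-0.696, against 0.158 in batch 2). With covariates CHRNA1 in muscle was -0.044 and LRP4 -0.328. LRP4 was also -0.031 without a filter and -0.082 in batch 2 alone. AGRN in muscle was -0.007 without the replicate block, -0.002 with DESeq2 and -0.013 with all 588 libraries, and in liver 0.046 with all 588. ACHE in liver was 0.014 at a mean CPM of at least 1, 0.354 in batch 1 and 0.047 without the animals in doubt. The difference of change was 0.044 for MUSK (liver, without the animals in doubt), -0.108 for COLQ (liver, batch 2 alone) and 0.035 for CHRNB1 (adipose, 0.5 counts added). The causes were not tested. MUSK, CHRND and LRP4 are limited by depth, with few counts in many libraries.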
